A study of Mus musculus with 8 samples.

Results

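The Schlafen genes of the mouse measured here were Slfn1, Slfn2, Slfn3, Slfn4, Slfn5, Slfn8 and Slfn9, which are 7 of the 27998 genes counted in each of 8 libraries of single microglia from the lumbar cord. They were taken by gene symbol. The family was selected on earlier results of these same libraries, namely its summed counts per library and its counts inside and outside dividing cells, so those values are given as a description and support nothing by themselves. Of the 7 members, 5 had at least 100 unique molecular identifiers (UMIs, each the tag of 1 captured RNA molecule) over all libraries and are described in depth. Slfn3 had 45 UMIs and Slfn4 had 12.

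The cells were YFP+ cells sorted by FACS from lumbar cords of C57BL/6 mice, all heterozygous for Cx3cr1-yfp-creER, in which the Cx3cr1 locus drives YFP and a tamoxifen-inducible Cre. The labels give control animals this allele alone, whereas A20 cKO animals were also Tnfaip3 fl/fl, and tamoxifen was the inducer of recombination in the study's methods. A20 is the ubiquitin-editing enzyme that Tnfaip3 encodes. Each genotype gave 4 libraries, from naive young adult animals and from animals 1, 2 and 3 days after bilateral transection of the sciatic nerve. The cords of 3 animals were pooled for each library, so every group was 1 library, no comparison had a replicate, and no p-value is given. The Cx3cr1 locus is also active in monocytes and border macrophages, so the sort does not by itself exclude them. The words control and A20 cKO refer to libraries as labelled: Tnfaip3 was at 6.83 to 25.3 CPM (UMIs scaled to a common library total) in the 4 control libraries and at 42.3 to 67.7 CPM in the 4 A20 cKO libraries, and a count at the 3′ end of the transcript does not check the deletion of exons elsewhere.

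Schlafen proteins are named after the German word for sleeping, because the first members were found as genes that slow the growth of developing T cells. The short members Slfn1 and Slfn2, the intermediate members Slfn3 and Slfn4, and the long members Slfn5, Slfn8 and Slfn9, which carry a helicase-like part, share a core domain that in several members cuts or binds RNA. Many of them are induced by type I interferon, an antiviral cytokine, and Slfn2 is known for holding T cells and monocytes in quiescence. In microglia, interferon-responsive cells are a recognised state in injury and disease.

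The 8 libraries fell into 2 sets before any member was considered. Control day 3 and the 4 A20 cKO libraries shared cell barcodes with one another, 256 in their 10 pairs, whereas the control naive, day 1 and day 2 libraries shared 27 in 3 pairs. Pairs that cross the sets shared 98 in 15 pairs. Per 1000000 possible pairs of barcodes, the rates were 5.41 to 67.6 among the former, 1.48 to 2.29 among the latter and 0.797 to 8.83 across, so the lowest rate of the first set (control day 3 with A20 cKO naive) lay below the highest rates across (8.83 and 8.51, control naive with A20 cKO day 1 and day 3). The first set is called the barcode-sharing libraries below. They also differed from the other 3 in markers of further cell types: 6 neutrophil markers were at 0 UMIs in the other 3 libraries and summed to 24.4 to 45.6 CPM in the barcode-sharing ones, monocyte markers were at 2.42 to 8.64 CPM against 29.1 to 91.6 CPM, and oligodendrocyte markers at 22.6 to 36.4 CPM against 109 to 166 CPM. The sum of 3 B-cell markers went the other way, at 38.2 to 51.1 CPM against 21.2 to 37.2 CPM. Of these, Ms4a1 was at 0 UMIs in all 8 libraries. Cd79a was at 0 UMIs in control naive and in A20 cKO day 1 to day 3, where the sum was Cd79b alone. It does not by itself show B cells. Astrocyte and neuron markers were higher in the barcode-sharing libraries, at 0 to 1.52 against 4.39 to 16.9 CPM and at 0.632 to 1.23 against 2.13 to 7.92 CPM. The sums of endothelial, border macrophage and T and NK cell markers overlapped between the sets. The 8 microglia markers, among them P2ry12 and Tmem119, were detected in every library, but their sum did not overlap between the sets, at 19957 to 24672 CPM in the other 3 and at 11892 to 18936 CPM in the barcode-sharing ones. A difference between the sets cannot be told apart from whatever else separates them, so genotype could be compared without crossing only on day 3, and time only from naive to day 2 in control and from naive to day 3 in A20 cKO. Kept cells numbered 558 to 3585 per library, 14626 in all, with medians of 2780 to 4274 UMIs. Shares of cells were read after thinning every cell to 2000 UMIs, which left 502 to 3480 cells per library.

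All 7 members lie in 1 cluster of 264 kb on chromosome 11 (GRCm38), at chr11:82951349-83215154. In order along the chromosome they are Slfn5 (ENSMUSG00000054404), Slfn9 (ENSMUSG00000069793), Slfn8 (ENSMUSG00000035208), Slfn2 (ENSMUSG00000072620), Slfn1 (ENSMUSG00000078763), Slfn4 (ENSMUSG00000000204) and Slfn3 (ENSMUSG00000018986). Slfn8 and Slfn9 are read from the minus strand and the other 5 from the plus strand. The promoter windows of all 7 members were found in the RefSeq tables (GRCm38.p6, 250 bases before to 50 after a start site). The core of the interferon-stimulated response element, searched as GAAANNGAAA on both strands, was present upstream of 3 members, Slfn5, Slfn8 and Slfn9. Of all genes with a window, 3.99% held it, and of the 24 genes of an interferon response list with a window, 14 did. The stretches around it are shown because these 3 genes are the long members whose levels are followed below, with the motif in capitals and each sequence written in the direction of its gene.
Slfn5, plus strand, chr11:82951907-82951996, motif beginning 155 bases upstream of the start site: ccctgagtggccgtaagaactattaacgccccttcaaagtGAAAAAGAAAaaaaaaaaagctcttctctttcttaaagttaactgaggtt
Slfn8, minus strand, chr11:83020811-83020898, motif 48 bases upstream: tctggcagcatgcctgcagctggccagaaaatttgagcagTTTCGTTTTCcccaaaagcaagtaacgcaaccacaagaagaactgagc
Slfn9, minus strand, chr11:82991831-82991915, motif 45 bases upstream: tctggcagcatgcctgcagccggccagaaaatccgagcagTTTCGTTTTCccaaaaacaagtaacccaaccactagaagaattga
The Slfn8 and Slfn9 runs hold the element on the opposite strand, and 47 of their first 50 bases are the same. Slfn1, Slfn2, Slfn3 and Slfn4 held no match to these letters in this window. A GAS element (TTCNNNGAA) was in the window of 0 of 7 members and of 9.55% of all genes, and an NF-kB motif was in those of Slfn1 and Slfn9 and of 9.55% of all genes. A match of letters is a description and not a binding site.

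Because the members resemble one another, the transcripts (GENCODE M21) were searched for stretches of 91 bases that occur in another member or in the pseudogene Slfn10-ps. In the last 600 bases of each transcript, where 3′ libraries take their reads, 7.92% of such stretches of Slfn8 and 8.50% of those of Slfn9 also occurred in another family gene, against 2.16% for Slfn2, 0.595% for Slfn3 and 0% for Slfn1, Slfn4 and Slfn5. Reads from stretches shared between counted genes are not assigned to 1 gene. Slfn10-ps had no row under that symbol in the deposited matrices, and how reads shared with it were counted was not tested. The levels of Slfn8 and Slfn9 are therefore the least certain. Slfn5 overlaps the antisense gene Slfn5os, which had 0 UMIs in all libraries. Slfn14 and Slfnl1 also had 0 UMIs in all 8 libraries.

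Slfn2, the quiescence gene, was the member with the most UMIs, 15524 over all libraries. The control libraries had 161 CPM in naive animals, then 160, 200.4 and 426 CPM on days 1 to 3. The A20 cKO libraries had 328, 379, 451 and 508 CPM from naive to day 3. All 5 barcode-sharing libraries lay above the other 3, and within A20 cKO the level was higher at each later time. Control day 3 lay between A20 cKO day 1 and day 2, and its ratio to day 2 had an interval that included 0 on the log2 scale.

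Slfn8 had 5940 UMIs. It stood at 65.4 CPM in control naive (95% Poisson interval 53.6 to 79.1) and then at 35.4, 35.8 and 196 CPM on days 1 to 3. The A20 cKO libraries had 176, 160, 202 and 263 CPM from naive to day 3. The groups separated into the same 2 sets, and within the control series Slfn8 was the member that was lower on days 1 and 2 than in naive animals, at 0.540-fold (interval 0.438 to 0.674) and 0.546-fold (0.445 to 0.681).

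Slfn5 separated the sets most widely among the members with UMIs in all 8 libraries. The control series began at 3.09 CPM (1.00 to 7.20), followed by 3.06, 2.97 and 125 CPM. The A20 cKO series ran through 71.5, 91.5, 120.0 and 145 CPM. The lowest barcode-sharing library was 23.2-fold above the highest of the other 3, whose levels could not be ordered within counting error.

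Slfn9, the close relative and neighbour of Slfn8, stood at 4.94 CPM in control naive (2.13 to 9.73) and at 2.77, 7.65 and 57.0 CPM after injury. The A20 cKO series ran through 41.7, 46.9, 62.6 and 71.6 CPM. The lowest barcode-sharing library was 5.45-fold above the highest of the others. Among the 3 low libraries it was highest in control day 2, the library with the largest number of dividing cells, although the interval of its ratio to control naive included 1-fold. Outside dividing cells (defined below) it was at 5.29 CPM in control day 2 and 2.48 CPM in control day 1. The part of dividing cells in its level was not tested.

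Slfn1, the other short member, had 0 UMIs in 7476 kept cells of control naive, day 1 and day 2. Control day 3 had 17 UMIs (2.33 CPM, interval 1.36 to 3.74). The A20 cKO libraries had 93, 34, 65 and 75 UMIs from naive to day 3, or 10.4, 11.2, 21.4 and 29.5 CPM. Every A20 cKO library thus lay above every control library, which held for no other member with at least 100 UMIs. The 3 libraries at 0 allow up to 0.0952 CPM between them by a floor of 3 UMIs over the group. Against that floor the barcode-sharing libraries together were at least 120-fold higher.

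Slfn3 and Slfn4, the intermediate members, were near the limit of detection. Slfn3 had 0 to 12 UMIs per library, and its levels of 0 to 2.97 CPM could not be ordered between any neighbouring libraries. Slfn4 had 9 UMIs in A20 cKO naive, 2 in control day 3 and 1 in A20 cKO day 2, and 6 of the 9 lay in 1 cell.

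**Figure D1:**
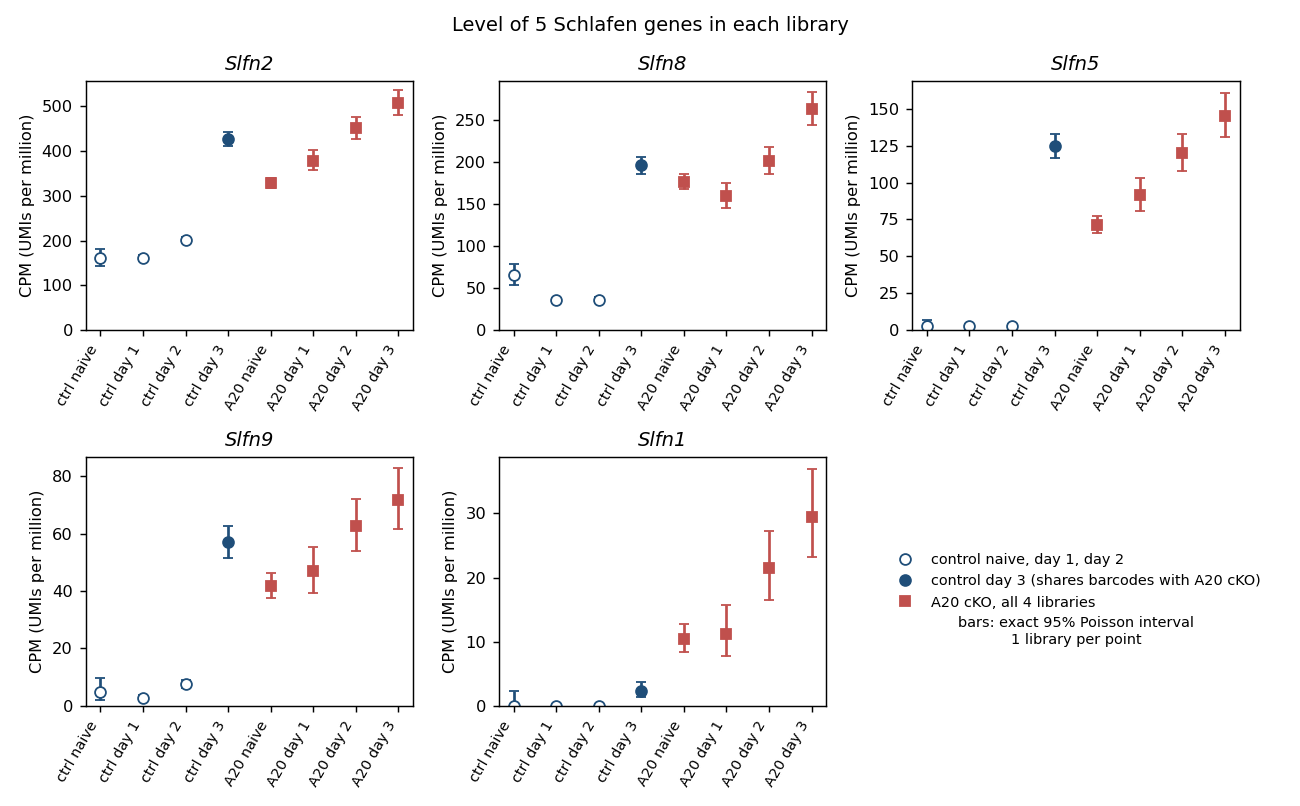
Level of 5 Schlafen genes as CPM (y axes from 0) in each of the 8 libraries (x axes), with exact 95% Poisson intervals that cover counting error only. Filled points mark the barcode-sharing libraries, and in every panel all 5 of them lie above the 3 open points, from 2.33 against 0 CPM for Slfn1 to 328 against 200 CPM for Slfn2.

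All 5 members with at least 100 UMIs were higher in every barcode-sharing library than in each of the other 3. The same held for 19.9% of the 11045 genes with as many UMIs, and for 33 of 33 genes of the interferon response list. Slfn1 (284 UMIs against 0) and Slfn5 (2556 against 95) passed the minimum of 100 UMIs only through the barcode-sharing libraries. The family was also chosen on these sums, so the count of members is a description. Pooled over the 2 sets, the difference was 34.2-fold for Slfn5, 9.83-fold for Slfn9, 5.17-fold for Slfn8 and 2.2-fold for Slfn2. The family total also changed its make-up: Slfn5 was 1.20% to 1.52% of all Schlafen UMIs in the other 3 libraries and 11.3% to 15.4% in the barcode-sharing ones, while Slfn2 was 68.7% to 81.0% against 49.8% to 54.9%.

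Time after injury was compared first within the control libraries that do not cross the sets. On day 1 against naive, 0 of 2 members with enough UMIs were at least 2-fold higher, where 3.82% of 8866 genes were, and on day 2 0 of 3 were, where 5.92% of genes were. Slfn2 was at 0.994-fold on day 1 (interval 0.876 to 1.14) and 1.24-fold on day 2 (1.10 to 1.42). Of the interferon response genes, 11 of 23 tested were at least 2-fold lower on day 1 (7.25% of all genes), among them Ifit3 and Oasl2, and 5 of 26 on day 2 (6.28% of all genes), whereas the chemokine gene Cxcl10 was higher on both days. On day 3 against naive, which crosses the sets, 4 of 4 members were at least 2-fold higher (8.76% of all genes). The median of all genes was itself shifted by a log2 ratio of -0.13 on control day 1 and -0.12 on day 2 against naive, and by 0.20 on day 1 and -0.12 on day 3 between the genotypes.

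Within A20 cKO all 4 libraries belong to the same set. On day 1, 0 of 5 members were at least 2-fold higher than in A20 cKO naive (1.56% of all genes). On day 2 this was 1 of 5, Slfn1 at 2.06-fold (interval 1.47 to 2.85), where 2.86% of all genes passed. On day 3 it was 2 of 5, Slfn1 at 2.83-fold (2.06 to 3.88) and Slfn5 at 2.03-fold (1.78 to 2.31), where 1.92% of all genes passed. The other members were higher on day 3 by smaller steps, Slfn9 at 1.72-fold (1.43 to 2.06), Slfn2 at 1.55-fold (1.45 to 1.65) and Slfn8 at 1.49-fold (1.36 to 1.63). The median over the 5 members was a log2 ratio of 0.78 on day 3, close to that of 33 interferon response genes at 0.82, with all genes at -0.10. The call of Slfn1 on day 2 was lost with a stricter cell filter of 2000 UMIs, 1000 genes and 5% mitochondrial UMIs (log2 ratio 0.98), and with that filter 1 of 5 members remained past 2-fold on day 3. From naive to days 1, 2 and 3 of A20 cKO the sum of the microglia markers was 18936, 13722, 11892 and 13409 CPM and that of the monocyte markers 39.5, 36.0, 91.6 and 65.3 CPM, and their part in these differences was not tested.

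Genotype was compared on day 3, when both libraries share barcodes. There 0 of 4 tested members were at least 2-fold higher in A20 cKO (1.86% of all genes), with 1.34-fold for Slfn8 (interval 1.22 to 1.47), 1.26-fold for Slfn9, 1.19-fold for Slfn2 (1.12 to 1.27) and 1.17-fold for Slfn5 (1.03 to 1.32). Slfn1 had 92 UMIs in both libraries together, below the minimum of 100, and was at 29.5 against 2.33 CPM, or 12.4-fold (7.40 to 22.9). The 2 libraries thus differed in Slfn1 by more than counting error, which without a replicate does not show a difference between genotypes. The intervals of the other 4 excluded equality but stayed below a log2 ratio of 0.59, the upper bound of Slfn9 (0.33, interval 0.07 to 0.59). A20 cKO naive could also be set against control day 3. Slfn1 was 4.37-fold higher there (log2 ratio 2.13, interval 1.40 to 3.00), 1 of 5 members (0.964% of all genes), while Slfn5 was at 0.574-fold (0.518 to 0.636), Slfn9 at 0.732-fold (0.635 to 0.844), Slfn2 at 0.770-fold (0.732 to 0.811) and Slfn8 at 0.899-fold (0.837 to 0.967).

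The 3 genotype comparisons that cross the sets gave 4 of 4 members at least 2-fold higher in A20 cKO, with 7.43% of all genes on the naive pair, 15.5% on day 1 and 10.7% on day 2. On the naive pair Slfn2 was close to the threshold (log2 ratio 1.02) and fell short of it with median-centred ratios (0.98) with the mean of per-cell CPM (0.89) and in cells without Mki67 or Top2a (0.94), which leaves 3 of 4. In these comparisons genotype and set cannot be told apart. Slfn5 was higher by a log2 ratio of 4.4 on the naive pair, 4.89 on day 1 and 5.32 on day 2, against 0.22 on day 3, where the pair does not cross.

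Shares of cells followed the levels. At 2000 UMIs per cell, Slfn2 was detected in 25.4% to 31.1% of cells of the other 3 libraries and in 39.3% to 58.9% of cells of the barcode-sharing ones. Slfn8 was in 7.33% to 12.2% against 25.1% to 40.5%, Slfn5 in 0.199% to 0.546% against 10.6% to 22.9%, and Slfn9 in 0.775% to 1.55% against 6.55% to 13.6%. Slfn1 was in 0.426% of cells of control day 3 (exact binomial interval 0.184% to 0.838%), and the A20 cKO libraries had it in 1.68%, 1.57%, 2.72% and 5.39% of cells from naive to day 3. Without thinning, the sets overlapped for Slfn2, at 32.6% to 52.9% against 48.0% to 79.0% of cells. Slfn5 was then in 0.880% to 1.26% against 14.4% to 38.9% of cells, and Slfn1 in 0.756% of cells of control day 3 and in 2.40% to 8.60% in A20 cKO. Cells of a type known to lack these genes were too few to measure free RNA: 40 kept cells of the barcode-sharing libraries had fewer than 3 UMIs of the microglia markers, with a median of 1360.5 UMIs against 3146.5 in the rest. Slfn1 was in 0 of these 40 cells, Slfn2 in 2, Slfn8 in 3, Slfn9 in 1 and Slfn5 in 7, or 17.5% (7.34% to 32.8%) against 21.6% of the remaining cells. For Slfn5 the interval of these shallow cells holds the share of the rest, and what the cells are was not tested.

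Several members could be detected in the same cell. At least 1 member was found in 31.5% to 37.7% of thinned cells of the other 3 libraries and in 57.5% to 79.2% of those of the barcode-sharing ones. At least 3 members were found in 0% to 0.0862% against 5.44% to 14.9% of cells, with the highest share in A20 cKO day 3. In A20 cKO naive, Slfn5 and Slfn9 were in the same cell 58 times where their shares predict 18.1, a ratio of 3.21 (2.44 to 4.15). In control day 3 the ratio for this pair was 1.79 (1.34 to 2.34). In A20 cKO days 1, 2 and 3 it was 1.81 (0.936 to 3.16), 1.16 (0.649 to 1.91) and 1.44 (0.921 to 2.14), with intervals that include 1. Slfn2 and Slfn8, the widely detected members, were together 0.932 to 1.62 times as often as predicted over the 8 libraries, with intervals above 1 in control naive, day 1 and day 3 and in A20 cKO naive and day 1, but not in control day 2 (0.932, interval 0.732 to 1.17), A20 cKO day 2 (1.09) or day 3 (1.14).

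**Figure D2:**
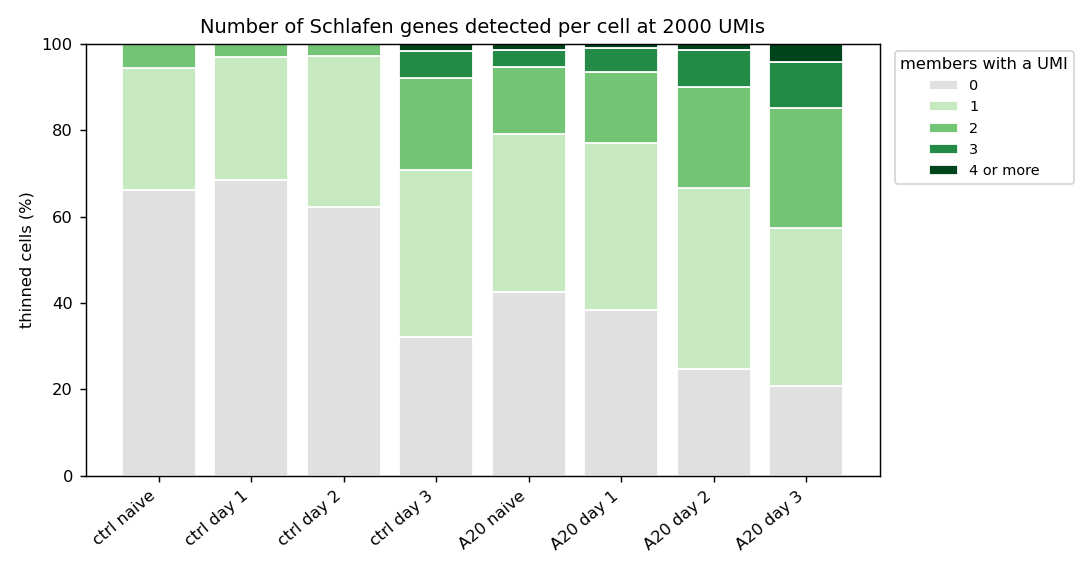
Share of thinned cells (y axis, percent) by the number of Schlafen genes with at least 1 UMI, in each library (x axis). Cells without any member make up 62.3% to 68.5% of control naive, day 1 and day 2 and 20.8% to 42.5% of the other 5 libraries.

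Within each library the members were then read against a list of 33 interferon response genes that contains none of them, including Ifit1, Isg15 and Ifi204. Per thinned cell this list gave a mean of 1.49 to 2.57 UMIs in the other 3 libraries and of 9.54 to 19.2 UMIs in the barcode-sharing ones, and cells with at least 6 UMIs of it were 2.08% to 7.77% of the former and 45.1% to 92.8% of the latter. Slfn5 was seldom detected below the highest range. In A20 cKO naive it was in 1 of 127 cells without a UMI of the list (0.787%), in 1.51% of cells with 1 to 2, in 2.11% with 3 to 5, and in 21.3% of cells with at least 6 (19.0% to 23.8%). In control day 3 the shares were 5.13%, 3.95%, 5.67% and 26.9%, and in A20 cKO day 1 they were 0%, 0.671%, 1.48% and 21.9%. All 3 libraries thus had shares of 5.67% or less below the highest range and of 21.3% or more within it. A20 cKO day 2 and day 3 had 18.9% and 24.0% in the highest range, and only 4 cells each below 3 UMIs.

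Of the positive thinned cells of Slfn1, 38 of 44 in A20 cKO naive, 12 of 13 in A20 cKO day 1 and 8 of 8 in control day 3 had at least 6 UMIs of the list, where 45.1%, 52.9% and 55.4% of all cells had. On A20 cKO day 2 and day 3 these were 16 of 17 and 28 of 29, where 92.8% of all cells lay in that range in both libraries, close to the share of Slfn1-positive cells. Within the range Slfn1 was in 0.768% of cells of control day 3 (0.332% to 1.51%), which were 8 cells of 1 library. From naive to day 3 it was in 3.23%, 2.73%, 2.75% and 5.61% of A20 cKO cells of the range. Only the interval of day 1 (1.42% to 4.73%) reached into that of control day 3. The range has no upper bound, so the number of UMIs of the list within it was not matched between these libraries. Whether the shares of Slfn1 differ at a matched number of UMIs of the list was therefore not tested. Slfn9 was in 13.4% of cells of this range in control day 3 and in 10.5% to 14.6% in A20 cKO. Slfn8 and Slfn2 were less tied to it, with 15.0% and 19.7% of cells of A20 cKO naive without a UMI of the list and 35.1% and 54.2% with at least 6.

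At a matched range the sets came closer for some members than for others. Among cells with 1 to 2 UMIs of the list, Slfn2 was in 25.3% to 30.7% of cells of the other 3 libraries, and in 38.5% of control day 3, 22.9% of A20 cKO naive and 32.9% of A20 cKO day 1, so the sets overlapped. Slfn8 was in 6.83% to 9.80% against 18.8%, 18.3% and 14.8%, which did not overlap. The intervals of control naive (6.38% to 14.2%) and A20 cKO day 1 (9.49% to 21.5%) did overlap. Slfn5 was in 0% to 0.453% against 3.95%, 1.51% and 0.671%. In the ranges of 0 and of 3 to 5 UMIs the sets overlapped for Slfn8. With 0 it was in 16.7% of cells of control naive, 15.4% of control day 3 and 15.0% of A20 cKO naive. With 3 to 5 it was in 12.3% of control naive and 11.8% of A20 cKO day 1. In the highest range Slfn5 was in 0%, 4.48% and 2.26% of the 39, 67 and 177 cells of control naive, day 1 and day 2, below the 18.9% to 26.9% of the barcode-sharing libraries. This range is open-ended, so the number of UMIs of the list within it was not matched between libraries.

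**Figure D3:**
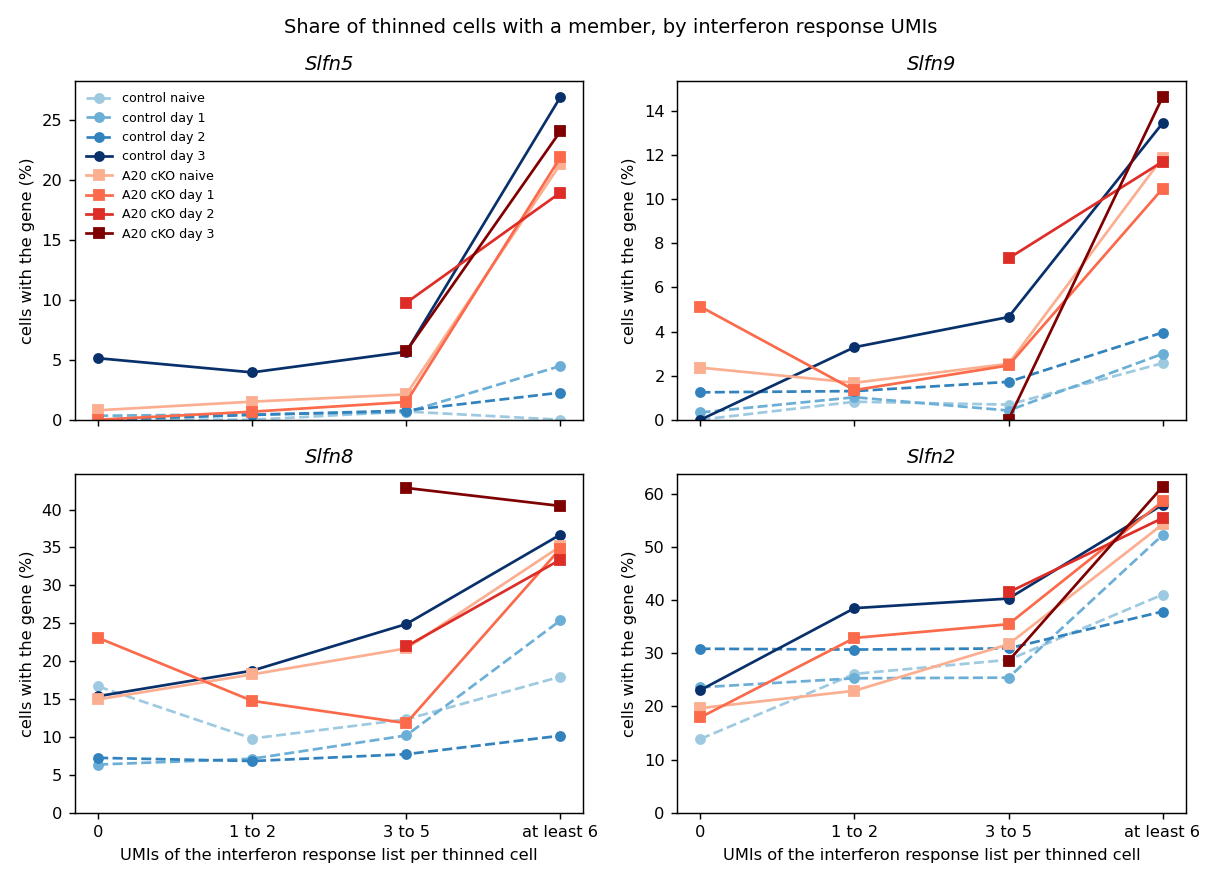
Share of thinned cells with Slfn5, Slfn9, Slfn8 or Slfn2 (y axes, percent, from 0) by the number of UMIs of the interferon response list in the cell (x axes), one line per library, solid for the barcode-sharing libraries, for ranges with at least 20 cells. Slfn5 stays at or below 5.71% up to 3 to 5 UMIs, except for 9.76% of 41 cells in A20 cKO day 2, and reaches 18.9% to 26.9% at 6 or more in the solid lines.

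Dividing cells were those with at least 1 UMI of Mki67 or Top2a, genes of the dividing nucleus. They numbered 3 in control naive, which was left out, and 64, 1675 and 449 in control days 1 to 3 and 190, 75, 184 and 90 in A20 cKO naive to day 3. Their median depth was higher than that of the other cells in every library, for example 4137 against 3023.5 UMIs in control day 3, and levels were therefore compared as CPM. In A20 cKO day 1, 62 of 886 kept cells had a barcode that another library also held. They held 89 of its 196 Mki67 UMIs and 123 of its 270 Top2a UMIs. Of its Slfn9 and Slfn5 UMIs they held 23 of 142 and 37 of 277. The dividing cells of this library thus rest in part on shared barcodes. Since the family was chosen on this comparison, its values are descriptive.

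Slfn9 was higher inside dividing cells in 6 of 6 libraries with enough UMIs. It was at 9.61 against 5.29 CPM in control day 2, 78.4 against 49.1 in control day 3, 89.8 against 36.9 in A20 cKO naive, 89.0 against 41.4 on day 1, 88.5 against 48.2 on day 2 and 105 against 63.0 on day 3. The log2 ratios ran from 0.68 to 1.29, and each interval lay above 0. In 2 libraries the difference reached 2-fold, A20 cKO naive at 1.29 (0.89 to 1.66), where 3.46% of all genes were as much higher inside, and A20 cKO day 1 at 1.12 (0.48 to 1.69), where 1.98% were. In the other libraries no tested member reached 2-fold higher, with 3.19% of genes in control day 1, 2.13% in control day 2, 3% in control day 3, 3.39% in A20 cKO day 2 and 2.51% in A20 cKO day 3.

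Slfn5 went the other way in A20 cKO after injury. It was at 43.1 CPM inside against 97.8 outside on day 1, 87.6 against 138 on day 2 and 85.9 against 161 on day 3, log2 ratios of -1.14 (-2.04 to -0.43), -0.65 (-1.01 to -0.31) and -0.89 (-1.39 to -0.45). On day 1 1.83% of all genes were at least 2-fold lower inside. In A20 cKO naive the ratio was -0.13 (-0.58 to 0.26), and in control day 3 it was 0.34 (0.13 to 0.54), at 147 against 116 CPM. The same contrast thus had opposite signs on day 3 in the 2 genotypes. It depended on the definition of a dividing cell. With at least 2 UMIs of Mki67 and Top2a required, Slfn5 was not higher inside in control day 3.

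Slfn2 was higher inside in 6 of 7 libraries, but with intervals above 0 in only 3, A20 cKO naive at a log2 ratio of 0.68 (0.52 to 0.83), control day 3 at 0.30 (0.19 to 0.41) and A20 cKO day 2 at 0.18 (0.02 to 0.34). Slfn8, in spite of its likeness to Slfn9, had log2 ratios of -0.14 to 0.48 in 7 libraries, with intervals above 0 in control day 3 (0.23) and A20 cKO naive (0.34). Interferon response genes as a list were also higher inside in 2 of these libraries. These were A20 cKO naive, with 33 of 33 and a median log2 ratio of 0.58 (all genes -0.02), and control day 3, with 28 of 30 and 0.29 (all genes 0.02). In A20 cKO days 1 to 3 their medians were 0.08, 0.07 and 0.03 (all genes -0.01, 0.01 and 0.02), so the values of Slfn9 and Slfn5 there lay on opposite sides of that list.

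**Figure D4:**
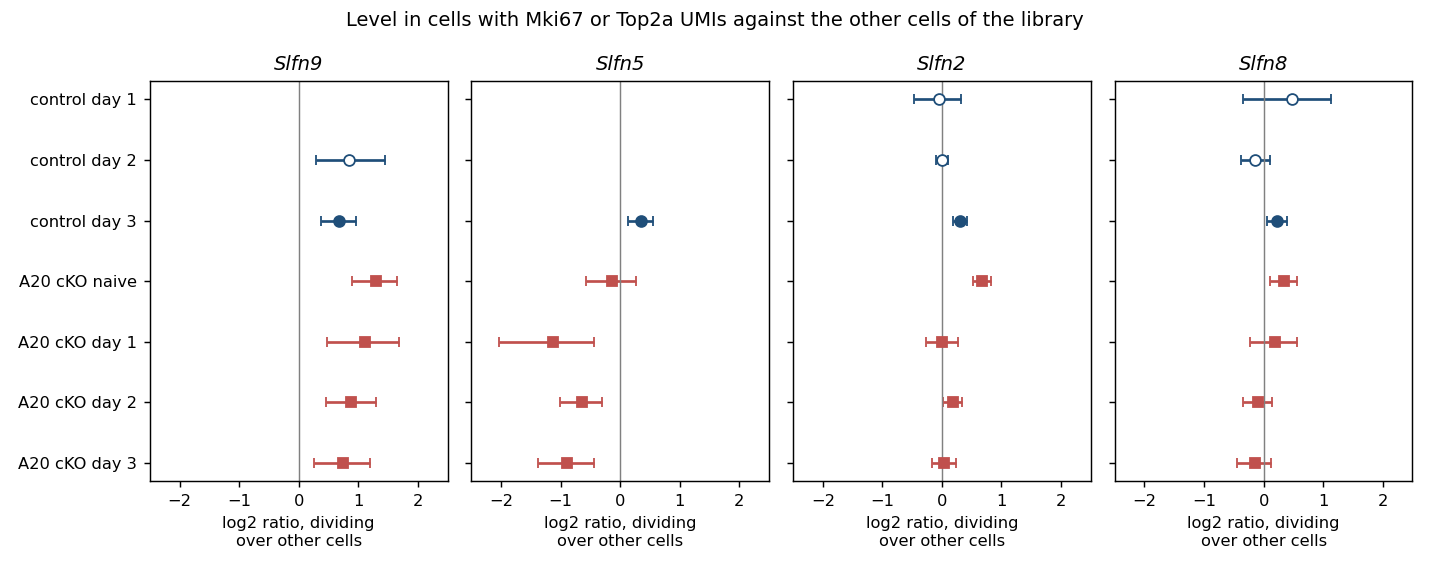
Log2 ratio of CPM in cells with Mki67 or Top2a UMIs over the other cells of the same library (x axes), with exact conditional 95% intervals, for 4 members in the libraries (y axis) with at least 100 UMIs of the gene. Slfn9 lies right of 0 in all 6 libraries (0.68 to 1.29), and Slfn5 lies left of 0 in A20 cKO day 1 to day 3 (-1.14 to -0.65) and right of it in control day 3 (0.34).

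A finer division used 12 genes of DNA replication, among them Pcna and the Mcm2 to Mcm7 helicase genes. In control day 3, Slfn9 was in 8.03% of 1033 thinned cells with no marker UMI and no replication UMI, in 9.20% of 348 cells with a marker and 0 to 2 replication UMIs, and in 22.5% of 80 cells with a marker and at least 3 (13.9% to 33.2%). In A20 cKO naive these shares were 5.50%, 8.03% and 36.5% (23.6% to 51.0%), the last of 52 cells. On A20 cKO days 1, 2 and 3 Slfn9 was in 26.1% (6 of 23), 24.5% (12 of 49) and 25.9% (7 of 27) of cells with a marker and at least 3 replication UMIs. On day 3 the interval (11.1% to 46.3%) overlapped that of cells with neither kind of UMI, at 13.4% (9.84% to 17.6%). In each barcode-sharing library the share of Slfn9 was thus highest in cells with both kinds of UMIs, although by small margins in 2. A20 cKO day 3 had 25.4% already with a marker and 0 to 2 replication UMIs. A20 cKO day 2 had 21.4% of 14 cells with no marker and at least 3 replication UMIs.

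Slfn5 was seldom detected in those cells. It was in 6.25% of them in control day 3 (2.06% to 14.0%) and in 7.69% in A20 cKO naive (2.14% to 18.5%). On A20 cKO days 1 and 2 it was in 4.35% (0.110% to 21.9%) and 6.12% (1.28% to 16.9%). On A20 cKO day 3 it was in 0 of 27, with an exact binomial upper bound of 12.8%. Only on A20 cKO day 3 was the interval clear of that of cells without either kind of UMI. In cells with a marker and 0 to 2 replication UMIs it was in 25.6% in control day 3 (21.1% to 30.5%) and 27.0% in A20 cKO day 3, and in cells without either kind of UMI in 15.9% and 22.4%. In A20 cKO naive the shares of these classes were 14.6% and 10.5%, whereas on days 1 and 2 they ran the other way, at 8.16% against 13.4% and 15.1% against 20.1%, and the intervals overlapped in these 3 libraries and in A20 cKO day 3. Slfn8 was in 21.7% to 40.7% of the cells with both kinds of UMIs and in 26.5% to 41.9% of those with neither, so it had neither of the patterns of Slfn9 and Slfn5.

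**Figure D5:**
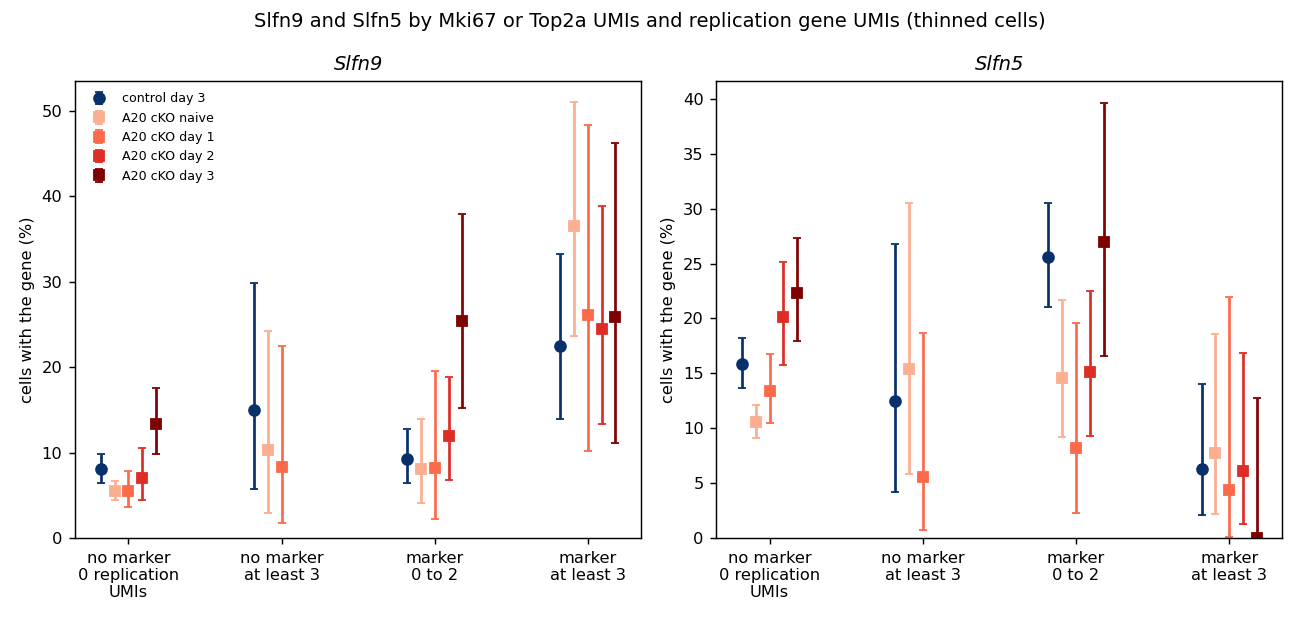
Share of thinned cells with Slfn9 or Slfn5 (y axes, percent, from 0) in 4 classes of cells by Mki67 or Top2a UMIs (marker) and by UMIs of 12 replication genes (x axes), for the 5 barcode-sharing libraries and classes with at least 20 cells, with exact binomial 95% intervals. In the class with a marker and at least 3 replication UMIs, Slfn9 is at 22.5% to 36.5% and Slfn5 at 0% to 7.69%.

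The dividing cells were also compared within a range of the interferon response list. Among cells with at least 3 UMIs of it, Slfn9 was in 17.4% of dividing cells (11.9% to 24.0%) and 7.50% of other cells (6.30% to 8.84%) in A20 cKO naive. The intervals overlapped in A20 cKO day 1, at 14.1% (9 of 64 cells) and 7.27% (42 of 578), and in control day 3, at 13.1% (9.88% to 17.0%) and 9.81% (8.16% to 11.7%). Slfn5 in the same range was in 13.8% of dividing and 14.1% of other cells in A20 cKO naive, in 7.81% (2.59% to 17.3%) and 16.3% (13.3% to 19.5%) in A20 cKO day 1, and in 24.4% (20.1% to 29.1%) and 18.7% (16.5% to 21.0%) in control day 3, with overlapping intervals in all 3. In A20 cKO day 2 and day 3 nearly all cells lay in this range, 174 of 175 dividing cells on day 2 and 90 of 90 on day 3, so the range changes little there. Slfn9 within it was in 15.5% (27 of 174) of dividing and 9.82% (44 of 448) of other cells on day 2, with overlapping intervals, and in 25.6% (16.9% to 35.8%) and 11.3% (8.47% to 14.6%) on day 3, without overlap. Slfn5 was in 12.6% and 20.5% on day 2 and in 18.9% and 23.6% on day 3, with overlapping intervals on both days.

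The upstream genes of the pathway were read in the same libraries. Of 17 genes of the interferon signalling list, such as receptors and kinases, 15 had enough UMIs. Of these, 5 were higher in all barcode-sharing libraries, where 19.9% of all genes were. Ifngr1 and Ifngr2, subunits of the receptor for interferon gamma, were at 821 to 1074 CPM in the other 3 libraries against 690 to 1173 CPM in the barcode-sharing ones and at 278 to 345 against 279 to 359 CPM, so their ranges overlapped. Ifi27l2a, Bst2 and Ifi204, the response genes with the most UMIs, were at 57.8 to 238.1 against 586 to 1402, 200 to 254 against 468 to 1200, and 30.4 to 51.8 against 428 to 811 CPM. On day 3, A20 cKO against control, 9 of 33 response genes and 0 of 15 upstream genes were at least 2-fold higher, where 1.86% of all genes were.

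Over the 8 libraries, the genes whose log2 level followed each member most closely among 3283 candidates with a mean of at least 50 CPM were these. For Slfn5 they were Ifit2 and Ifih1, both induced by interferon, and Taf15, each at a Pearson r of 0.996. For Slfn8 they were Ifit3, Trafd1 and Samhd1 (r 0.994 to 0.995), for Slfn9 Ifi204, Eif2ak2 and Tor1aip2 (0.991 to 0.993), and for Slfn2 Fgl2, Eif2ak2 and Tpr (0.990 to 0.991). For Slfn1 they were Cybb, the catalytic subunit of the phagocyte oxidase (0.996), and the class I genes H2-T22 (0.992) and H2-Q4 (0.991). These correlations are descriptions over 8 points that fall into the 2 sets. Cybb was at 4.41 to 4.94 CPM in the other 3 libraries, 25.9 CPM at the lowest of the barcode-sharing ones and 273 CPM at the highest.

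Most UMIs of Slfn1 lay outside cells with markers of blood or border cells, namely monocytes, border macrophages, neutrophils, T and B cells. Cells with at least 3 UMIs of those markers held 0 of 17 Slfn1 UMIs in control day 3, and in A20 cKO naive to day 3 they held 7 of 93, 0 of 34, 7 of 65 and 9 of 75. In A20 cKO day 3 these cells held 12% of the Slfn1 UMIs and were 5.02% of all cells, and in A20 cKO naive they held 7.53% and were 2.64%. Their part in the level of Slfn1 was not otherwise tested.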

How the data were processed

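Single-cell libraries were made with a 10x Genomics 3′ kit (version 3.1 in the labels). Per the labels, Cell Ranger 2.1.1 and mm10 were used, from the submitters' processing notes. The authors' deposited matrices hold UMI counts by gene and barcode, not normalized, one matrix for each library. In the study, libraries were integrated, which was not done here. Members and gene lists were chosen with earlier results of these data known.

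Barcodes with at least 1000 UMIs, 500 genes and at most 10% mitochondrial UMIs were kept (14626 of 14883), and no doublet caller was run beyond the exclusion at the sort. Kept UMIs per library ranged from 1620481 to 15817426. Levels were UMI sums as CPM. Log2 ratios had 0.5 UMIs added, and a gene was called at 2-fold with at least 100 UMIs in both sums. Intervals are exact 95% Poisson, Clopper-Pearson or conditional intervals and cover counting error only. For shares, cells were thinned without replacement to 2000 UMIs, which left out 935 cells. For each member with at least 200 UMIs, the 3 genes with the highest Pearson r of log2(CPM + 1) were named, without mitochondrial, ribosomal-protein, sex-linked and predicted genes. From the 2 interferon lists the 3 genes with the highest mean CPM were named, except 1 that is not reported here, and Cxcl10, Ifit1, Ifit3, Isg15 and Oasl2 after their values were seen. Of the interferon response list 33 of 34 symbols were found. Protein sequences and Slfn10-ps counts were not analysed here. Functions were tested on simulated data. Python 3.11.15, numpy 2.4.6, scipy 1.17.1 and pandas 2.3.3 were used.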

Additional observations from a re-analysis of the deposited data

Results flagged for a closer look

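With each group 1 library, no group could be checked for an outlying sample. Slfn5 in dividing against other cells on day 3 had opposite signs in the 2 genotypes, with a log2 ratio of 0.34 in control and -0.89 in A20 cKO and intervals that exclude 0 in both. The sign in control did not hold when dividing cells needed at least 2 marker UMIs. The difference of -1.23 on the log2 scale was not tested, since neither genotype has a replicate. Slfn8 on day 2 against naive was also opposite, at -0.87 in control and 0.19 in A20 cKO, a difference of 1.07 that was not tested either.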

How the results depend on the processing

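All 5 members stayed higher in every barcode-sharing library under the mean of per-cell CPM, all barcodes, a stricter cell filter (2000 UMIs, 1000 genes, 5% mitochondrial), barcodes of 1 library only and cells without Mki67 or Top2a, and so did their shares of cells at 1000 UMIs and with another seed. Without thinning the shares of 4 of 5 did, Slfn2 being the exception. Of 370 recomputed log2 ratios, 355 kept their sign, and the 15 others had a main value of at most 0.48 in size. All 132 of those at least 2-fold in size kept it. Counts of members at least 2-fold higher moved by over 1.5 times, or from or to 0, in these cases. For A20 cKO day 2 against A20 cKO naive the count of 1 became 0 with the stricter filter, 2 with a minimum of 20 UMIs and 3 at 1.5-fold. For A20 cKO day 3 against A20 cKO naive the count of 2 became 1 with the stricter filter and 4 at 1.5-fold. For A20 cKO day 3 against control day 3 the count of 0 became 1 with a minimum of 20 UMIs, which admits Slfn1, and for A20 cKO naive against control day 3 the count of 1 became 0 in cells without Mki67 or Top2a, where Slfn1 had a log2 ratio of 2.29 but too few UMIs to be counted. Smaller moves were from 4 to 3 for A20 cKO naive against control naive with median-centred ratios, with the mean of per-cell CPM and in cells without Mki67 or Top2a, from 2 to 3 for A20 cKO day 3 against A20 cKO naive with the mean of per-cell CPM (Slfn9 at a log2 ratio of 1.02), and from 4 to 5 in the 3 genotype comparisons that cross the sets with a minimum of 20 UMIs. Slfn2 was higher in dividing cells in 4 libraries with barcodes of 1 library only, against 6. The number of libraries with Slfn5 higher in dividing cells, 1 (control day 3), was 0 when dividing cells needed at least 2 marker UMIs and 2 in thinned cells. With quartiles of interferon response CPM in place of UMI ranges, Slfn5 was in more cells of the highest quartile in 8 of 8 libraries, against 5 of 6 in the main ranges, and Slfn1 in 5 of 8 against 3 of 6. The cause of the other changes was not tested. No paired analysis was possible because each group is 1 library. At these depths Slfn3 and Slfn4 allow no comparison, and every difference lacks a replicate.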
